A study of Mus musculus with 6 samples.

Results

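The genes described here encode the proteins of the cytosolic ribosome, the particle that translates messenger RNA. They were taken by gene symbol: every row of the count table named Rps or Rpl followed by a number, with the 3 acidic stalk genes Rplp0, Rplp1 and Rplp2 and the small-subunit gene Rpsa, and without rows marked as pseudogenes. The rule found 83 genes of the 16603 in the table, 32 of the small subunit and 51 of the large subunit. Rpl6l and Rpl32l are annotated as processed pseudogenes in GENCODE M21, and the other 81 as protein-coding. Expression was measured by RNA sequencing of bulk mouse liver in 3 libraries labelled Mdr2-knockout and 3 libraries labelled wild-type. Mdr2, whose gene symbol is Abcb4, carries phosphatidylcholine across the hepatocyte membrane into bile, and mice without it develop chronic bile duct injury. The submitters compared these livers to study how liver progenitor cells expand and give rise to bile duct cells. The labels give tissue and genotype, and no age, sex, strain, allele or number of animals, and the spread behind every p-value is that among these libraries, which may be partly technical.

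A ribosome has a small subunit, which reads the messenger RNA, and a large subunit, which joins the amino acids. Each carries its own set of proteins, mostly in a single copy per particle, and their messengers are among the most abundant in growing and secreting cells. Many of these messengers begin with a run of pyrimidines, the 5′ terminal oligopyrimidine or TOP motif, through which mTORC1 signalling controls their translation. The liver makes the bulk of plasma protein, and its hepatocytes are rich in ribosomes.

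The libraries held 17100393 to 18124467 counts. Of all genes, 12612 passed the filter on low counts and were tested, among them 81 of the 83 ribosomal protein genes. Abcb4, the gene named as deleted, had 499, 513 and 434 CPM (counts scaled by TMM factors to a library of 1e6) in the libraries labelled Mdr2-knockout, against 330, 369 and 273 CPM in those labelled wild-type. It was thus higher in the group labelled as lacking it (log2 fold change 0.57, SE 0.12, adjusted p = 0.00389 by edgeR's quasi-likelihood test), and each direction below refers to the labels. The labels name no deleted part of the gene, so a count over the whole gene need not test the deletion. The columns read as wild-type were assigned by elimination, and a swap of the groups would turn every direction given here. Neither a remaining transcript nor a swap was tested. Libraries correlated at r of 0.982 to 0.989 across genes within a group and at 0.945 to 0.953 between groups. In bulk liver, fewer cells of a type and less RNA per cell cannot be told apart.

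Whether the ribosomal protein genes were higher or lower depended on what they were measured against. Their summed counts were 205072, 218231 and 193572 in the libraries labelled Mdr2-knockout, against 188154, 184839 and 198914 in those labelled wild-type. As a share of all counts this was 1.13%, 1.21% and 1.12% in the libraries labelled Mdr2-knockout, against 1.10%, 1.05% and 1.13% in those labelled wild-type. The groups overlapped, with means of 1.15 ± 0.0486% and 1.09 ± 0.0406% (SD, n = 3 each). The counting error of each share was small, with exact 95% binomial intervals such as 1.20% to 1.21% for the highest library, which cover counting error only.

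The 50 most abundant genes, which include the albumin gene Alb, took 31.5 ± 0.610% of all counts in the libraries labelled Mdr2-knockout and 36.7 ± 0.959% in those labelled wild-type (SD, n = 3 each). Alb alone took 5.47 ± 0.0582% and 7.71 ± 0.355% (SD, n = 3 each, labelled Mdr2-knockout first). With these 50 genes left out of the total, the ribosomal protein share was 1.68 ± 0.0843% in the libraries labelled Mdr2-knockout and 1.73 ± 0.0636% in those labelled wild-type (SD, n = 3 each). TMM scaling, which sets library sizes so that most genes do not differ, gave factors of 1.10 to 1.11 to the libraries labelled Mdr2-knockout and 0.890 to 0.920 to those labelled wild-type. On that scale the family summed to 10401 ± 507 CPM in the libraries labelled Mdr2-knockout, against 12099 ± 394 CPM in those labelled wild-type (SD, n = 3 each), a ratio of 0.860. The sum of the same counts was thus 1.05 times as high, 0.973 times as high or 0.860 times as high, by denominator alone.

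Gene by gene, 41 of the 81 tested ribosomal protein genes were lower in the libraries labelled Mdr2-knockout with TMM scaling and 0 were higher (edgeR's quasi-likelihood test with Benjamini-Hochberg adjustment over all tested genes, threshold 0.05). The share of members called lower was 50.6%, against 16.3% of all tested genes called lower and 20.9% called higher. At an unadjusted p under 0.05, 52 members were lower and 3 higher. DESeq2 called 43 of 82 tested members lower and 0 higher (13.4% and 16.7% of its 14696 tested genes). With limma-voom 42 were lower and 0 higher (16.5% and 20.4% of all tested genes). The log2 fold changes were small, with a median of -0.21 and a range of -0.47 to 0.40, and 76 of 81 were negative. In 54 of 81 genes every library labelled Mdr2-knockout lay below every library labelled wild-type, in 3 every one lay above, and in 24 the groups overlapped; over all tested genes 23.7% lay below and 27.6% above. With total-count scaling 10 of the 81 were higher and 0 lower, with a median of 0.08, while 47.0% of all tested genes were called higher and 2.62% lower; at an unadjusted p under 0.05, 14 were higher and 1 lower. RLE factors gave 44 lower and 0 higher (17.3% and 20.4% of all tested genes; 55 and 3 at an unadjusted p under 0.05). With upper-quartile factors 1 was higher and 21 lower (23.3% and 11.4% of all tested genes), and with totals that left out the 50 most abundant genes 3 were higher and 4 lower (33.0% and 5.11%). Leaving out 1 library at a time under TMM gave 19 lower genes without replicate 3 labelled Mdr2-knockout, 23 without its replicate 1, 26 without wild-type replicate 1, 26 without wild-type replicate 2, 25 without wild-type replicate 3 and 39 without Mdr2-knockout replicate 2; over all tested genes 11.2% to 15.5% were called lower in these fits.

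**Figure D1:**
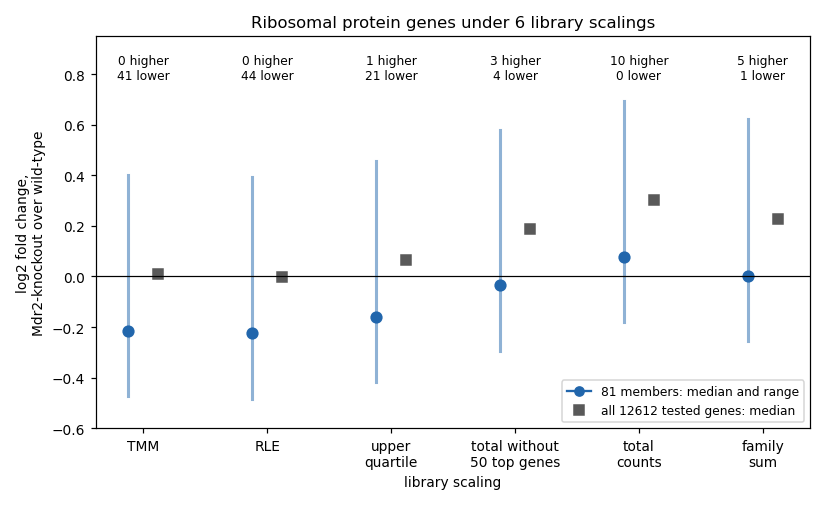
Log2 fold changes of the 81 tested ribosomal protein genes (circle, median; bar, range; libraries labelled Mdr2-knockout over wild-type) and the median of all 12612 tested genes (square) under 6 library scalings, with the number of members called higher or lower above. The median of the members moves with the scaling, at -0.21 with TMM and 0.08 with total counts, and stays 0.22 to 0.23 below that of all genes.

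The distance between the family and other genes did not move with the scaling, because a scaling shifts all genes of a library by nearly the same amount. The members' median lay 0.22 to 0.23 below the median of all tested genes on the log2 scale over the 9 scalings run. All genes, however, are mostly far less abundant: the median mean FPKM (fragments per kilobase of transcript, scaled to the library total, a level per length) was 147 for the tested members and 4.56 for all tested genes. Among other genes, the median log2 fold change under TMM was lower at higher levels, at 0.23 below 5 FPKM and -0.37 above 200 FPKM. At matched FPKM, which depends on the gene lengths used, the members stood on both sides of the others. At 5 to 20 FPKM the median was -0.08 for both the 3 members and the 3802 other genes. At 20 to 50 FPKM the 6 members had a median of -0.23, against -0.14 for the 1189 other genes. At 50 to 100 FPKM the values were -0.18 for 17 members and -0.22 for 469 other genes. At 100 to 200 FPKM they were -0.20 for 28 members and -0.29 for 260 other genes, and above 200 FPKM -0.25 for 27 members and -0.37 for 259 other genes. Above 200 FPKM, 18 of 27 members were called lower, beside 55.6% of the other genes, and at 100 to 200 FPKM 13 of 28, beside 51.9%. At 50 to 100 FPKM 6 of 17 were, beside 44.3%, and at 20 to 50 FPKM 4 of 6, beside 34.1%. These medians over genes carry no test.

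**Figure D2:**
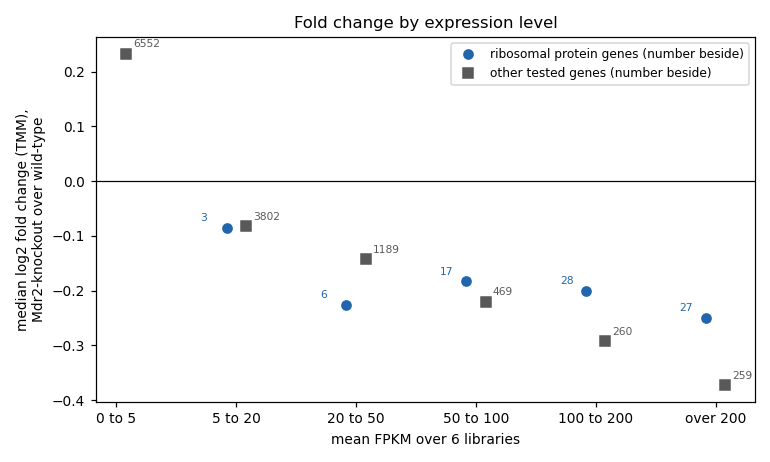
Median log2 fold change under TMM scaling (libraries labelled Mdr2-knockout over wild-type) by mean FPKM over the 6 libraries, for ribosomal protein genes (circles) and other tested genes (squares), with the number of genes beside each point. The medians of the other genes decline at each step of level, while those of the members from 20 FPKM up lie between -0.25 and -0.18, and above 50 FPKM nearer to 0 than those of the other genes.

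Beside 16.3% of all tested genes, 18 of the 32 small-subunit genes were called lower under TMM, with a median log2 fold change of -0.23. Of the 49 tested large-subunit genes, 23 were, with a median of -0.20. With total counts the medians were 0.06 and 0.10, so the direction of both flipped with the scaling. The balance between the subunits did not shift beyond the spread of libraries: small-subunit genes held 39.9 ± 0.151% of the family's counts in the libraries labelled Mdr2-knockout and 40.1 ± 0.214% in those labelled wild-type (SD, n = 3 each).

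Among small-subunit genes the lowest log2 fold change was that of Rps28. It had 40.9, 47.5 and 47.2 CPM in the libraries labelled Mdr2-knockout, against 66.1, 58.7 and 60.7 CPM in those labelled wild-type. The groups did not overlap, and the log2 fold change was -0.45 (SE 0.08, edgeR adjusted p = 0.00204). Rps18, which sits in the head of the small subunit, had 180, 196 and 171 CPM in the libraries labelled Mdr2-knockout, against 237, 225 and 237 CPM in those labelled wild-type (log2 fold change -0.35, edgeR adjusted p = 0.00622). Rps2, which lies at the messenger RNA entry, had 331, 323 and 289 CPM in the libraries labelled Mdr2-knockout, against 384, 363 and 397 CPM in those labelled wild-type (-0.28, edgeR adjusted p = 0.0257). Neither gene overlapped between the groups. With total counts none of these 3 passed, at log2 fold changes of -0.16 for Rps28, -0.06 for Rps18 and 0.01 for Rps2.

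Among the lowest large-subunit genes were Rpl36, Rpl28 and Rpl18. Rpl36, on chromosome 17 from 56613416 to 56614243 (GRCm38), had 61.4, 67.1 and 59.2 CPM in the libraries labelled Mdr2-knockout, against 87.2, 85.9 and 87.4 CPM in those labelled wild-type. At -0.47 (SE 0.07, adjusted p = 0.000627 by edgeR) its log2 fold change was the lowest of the family. Its libraries labelled wild-type lay close together and apart from the others. Rpl28, a protein of animal ribosomes that baker's yeast lacks, had 131, 151 and 134 CPM in the libraries labelled Mdr2-knockout, against 183, 171 and 194 CPM in those labelled wild-type (-0.40, SE 0.08, edgeR adjusted p = 0.00432). Rpl18 had 110, 111 and 113 CPM in the libraries labelled Mdr2-knockout, against 140, 142 and 153 CPM in those labelled wild-type (-0.38, SE 0.07, edgeR adjusted p = 0.00188). Rpl8, which reaches the peptidyl transferase centre, followed at -0.37 (edgeR adjusted p = 0.00338), with Rpl27a at -0.36 (adjusted p = 0.00334) and Rpl27 at -0.31 (adjusted p = 0.00372). With total counts each of these 6 stayed negative, at -0.18 for Rpl36 to -0.02 for Rpl27, and none passed.

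The stalk proteins form the arm of the large subunit that recruits the elongation factors. All 3 of their genes were called lower under TMM, beside 16.3% of all tested genes. Rplp0, which anchors the stalk, had 354, 378 and 347 CPM in the libraries labelled Mdr2-knockout, against 400, 428 and 461 CPM in those labelled wild-type (log2 fold change -0.26, edgeR adjusted p = 0.0359). Rplp1 had 165, 177 and 154 CPM in the libraries labelled Mdr2-knockout, against 209, 205 and 215 CPM in those labelled wild-type (-0.34, edgeR adjusted p = 0.00595). Rplp2 had 66.0, 69.3 and 62.4 CPM in the libraries labelled Mdr2-knockout, against 81.0, 74.4 and 78.6 CPM in those labelled wild-type (-0.24, edgeR adjusted p = 0.0195). No library of one group reached the other in any of the 3, while 23.7% of all tested genes lay below without overlap. With total counts the median of the 3 stalk genes was 0.04. Together they held 5.68 ± 0.0705% of the family's counts in the libraries labelled Mdr2-knockout and 5.93 ± 0.136% in those labelled wild-type (SD, n = 3 each).

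**Figure D3:**
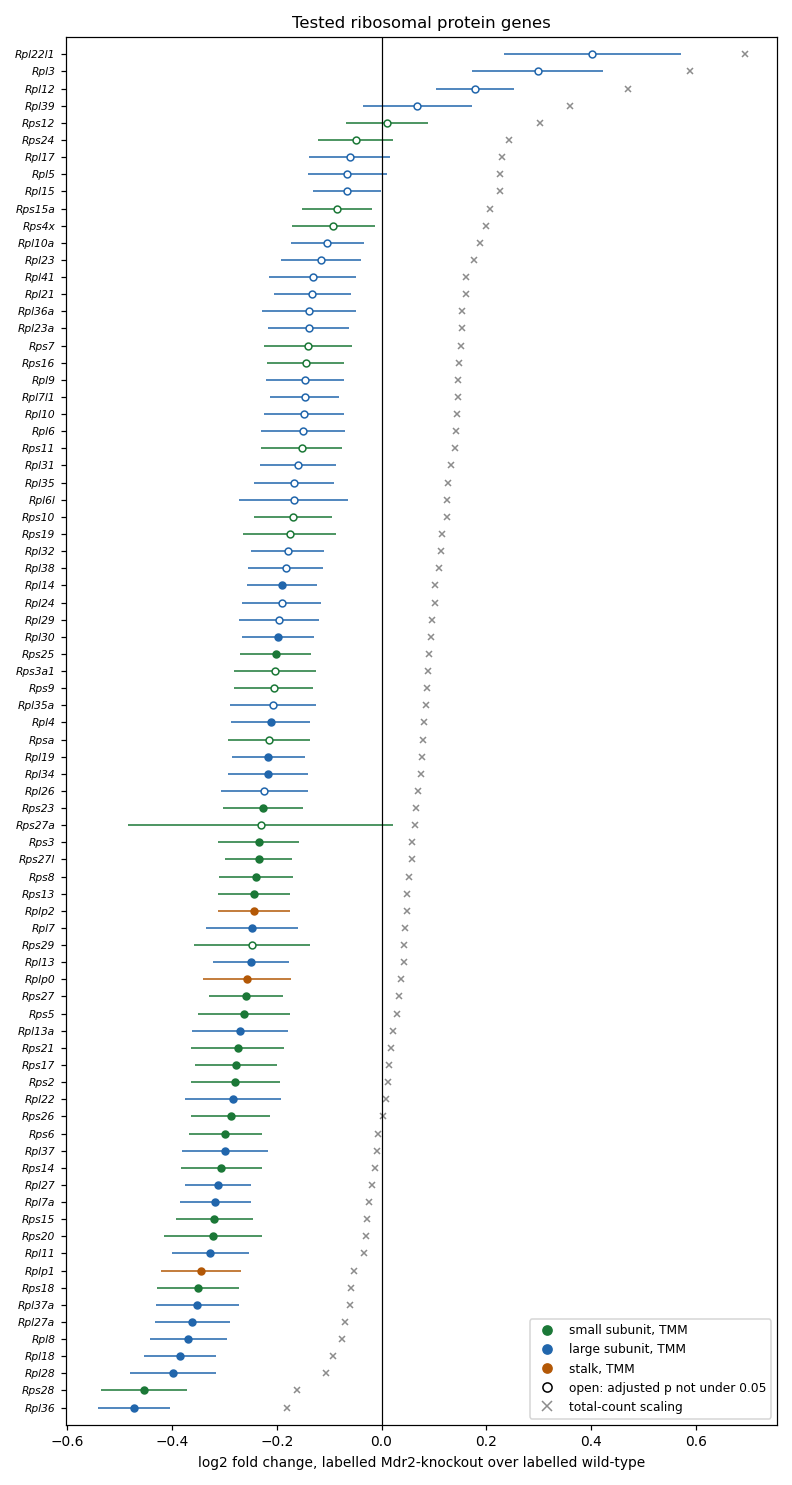
Log2 fold change of 80 of the tested ribosomal protein genes (libraries labelled Mdr2-knockout over wild-type) with TMM scaling (circles, bars 1 SE, filled where the edgeR adjusted p is under 0.05) and with total-count scaling (crosses). Crosses lie to the right of circles by about the same step in each gene; Rpl22l1, Rpl3 and Rpl12 stand at the upper end and Rpl36 and Rps28 at the lower end with both.

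Genes were also measured against the family itself, by setting each library's size to its sum of ribosomal protein counts, which no scaling of whole libraries can change. On this scale, whose denominator centres the members near 0, 5 of 81 members were higher and 1 was lower and 75 did not pass, while 34.8% of all tested genes were called higher and 3.15% lower. The 5 higher were Rpl22l1, Rpl3, Rpl12, Rpl39 and Rps12, and the lower 1 was Rpl36. Under TMM the first 5 had not passed, with adjusted p of 0.0846 for Rpl22l1, 0.0895 for Rpl3, 0.0857 for Rpl12, 0.640 for Rpl39 and 0.932 for Rps12 by edgeR. In 16 members every library labelled Mdr2-knockout had a higher share of the family than every library labelled wild-type, in 15 a lower share, and in 50 tested members the groups overlapped; over all tested genes 44.8% lay above and 5.83% below on this scale.

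Rpl22l1, on chromosome 3 from 28805436 to 28807424, encodes a close relative of Rpl22 that can take its place in the large subunit, and Rpl22 is known in mouse cells to repress it. Its counts were 180, 189 and 152 in the libraries labelled Mdr2-knockout, against 111, 80 and 123 in those labelled wild-type. Per 10000 family counts this was 8.78, 8.66 and 7.85 in the libraries labelled Mdr2-knockout, against 5.90, 4.33 and 6.18 in those labelled wild-type. The groups did not overlap (log2 fold change 0.62, SE 0.16, edgeR adjusted p = 0.00826). Rpl22 itself had 66.9, 79.3 and 70.8 per 10000 family counts in the libraries labelled Mdr2-knockout, against 77.0, 77.2 and 73.5 in those labelled wild-type, which overlapped (-0.07, edgeR adjusted p = 0.580). The FPKM of Rpl22l1 was 62.9%, 52.3% and 53.1% of that of Rpl22 in the libraries labelled Mdr2-knockout, against 36.7%, 26.9% and 40.3% in those labelled wild-type, a ratio within each library that no scaling affects. The size of this percentage depends on the gene lengths used for the FPKM, while the comparison of the groups does not.

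Rpl3, on chromosome 15 from 80077791 to 80091868, encodes a large-subunit protein whose arm reaches the peptidyl transferase centre. It held 204, 154 and 171 per 10000 family counts in the libraries labelled Mdr2-knockout, against 135, 104 and 130 in those labelled wild-type. Both groups spread widely without overlapping (log2 fold change 0.52, SE 0.13, edgeR adjusted p = 0.00546). Rpl12, on chromosome 2 from 32961559 to 32965345, encodes a protein at the base of the stalk. It held 100, 94.2 and 93.2 per 10000 family counts in the libraries labelled Mdr2-knockout, against 75.6, 68.8 and 73.7 in those labelled wild-type. The groups lay far apart relative to their spread (0.40, SE 0.09, edgeR adjusted p = 0.00281). These 3 genes passed under every alternative run for this comparison.

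Rpl39, whose product lines the tunnel through which the new protein leaves, held 32.7, 34.9 and 33.1 per 10000 family counts in the libraries labelled Mdr2-knockout, against 30.3, 24.0 and 28.2 in those labelled wild-type (log2 fold change 0.29, edgeR adjusted p = 0.0375). Rps12, a protein of the small subunit's beak, held 70.6, 66.5 and 67.5 in the libraries labelled Mdr2-knockout, against 58.2, 54.7 and 61.4 in those labelled wild-type (0.23, edgeR adjusted p = 0.0489). Rpl36 held 60.4, 61.1 and 58.9 in the libraries labelled Mdr2-knockout, against 72.9, 72.8 and 69.7 in those labelled wild-type (-0.26, edgeR adjusted p = 0.0257). None of the 3 overlapped between the groups, but the call of Rpl39 was lost in 6 of 11 alternatives, that of Rps12 in 9 and that of Rpl36 in 6. Without 1 library these counts ran from 3 to 4 higher and from 0 to 1 lower: the 3 higher were left without Mdr2-knockout replicates 1, 2 or 3 or wild-type replicate 2, and none was lower without Mdr2-knockout replicate 1 or wild-type replicates 1 or 2.

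**Figure D4:**
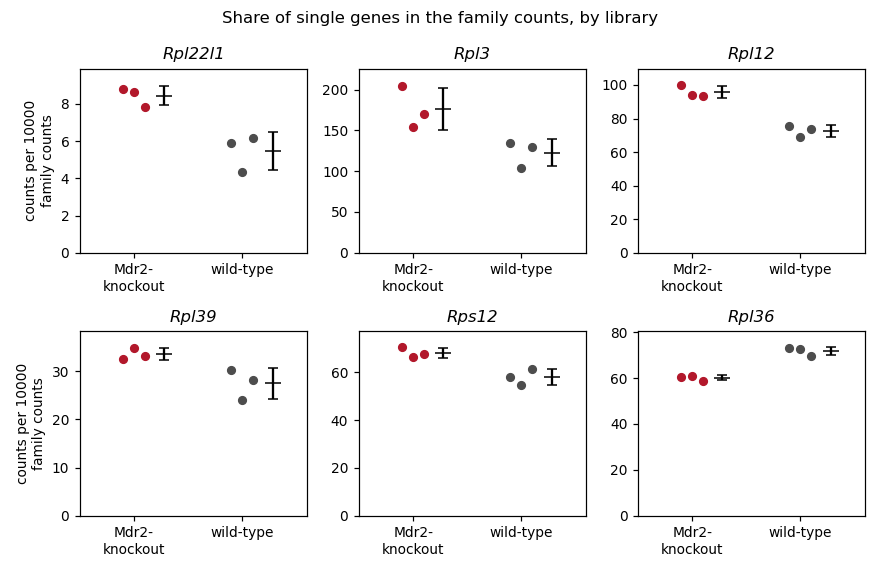
Counts per 10000 counts of the ribosomal protein family in each library (points), with mean and SD (bars, n = 3), for the 5 genes called higher and the 1 called lower relative to the family. In each panel no library labelled Mdr2-knockout overlaps those labelled wild-type; the groups lie nearest, relative to their level, in Rpl39.

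The start sites of the genes at both ends of the family are shown because members that moved against the family can be compared there with members low under TMM. Each line gives 75 bases of the RefSeq promoter table (GRCm38.p6), 5′ to 3′ on the strand of the gene, with 50 bases before and 25 from the annotated start. Capitals mark a C followed by at least 4 bases that are each C or T, beginning between 5 bases before and 15 bases after the start. This is looser than a TOP motif, which begins the messenger, so a marked tract need not be a TOP motif. The first 4 are among the 5 that rose relative to the family, and the last 3 were among its lowest under TMM.
Rpl22l1 (chr3:28805458-28805532, plus strand): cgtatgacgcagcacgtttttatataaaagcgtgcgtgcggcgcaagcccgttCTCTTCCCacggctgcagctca
Rpl12 (chr2:32961662-32961736, plus strand): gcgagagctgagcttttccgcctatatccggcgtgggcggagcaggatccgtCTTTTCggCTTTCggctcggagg
Rpl39 (chrX:37085198-37085272, minus strand): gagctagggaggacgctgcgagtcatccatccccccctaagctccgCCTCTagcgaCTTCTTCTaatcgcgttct
Rps12 (chr10:23787185-23787259, minus strand): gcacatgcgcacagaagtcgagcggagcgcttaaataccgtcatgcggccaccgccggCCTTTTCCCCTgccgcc
Rps28 (chr17:33824538-33824612, minus strand): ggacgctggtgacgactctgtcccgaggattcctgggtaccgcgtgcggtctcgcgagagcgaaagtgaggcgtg
Rpl28 (chr7:4792915-4792989, plus strand): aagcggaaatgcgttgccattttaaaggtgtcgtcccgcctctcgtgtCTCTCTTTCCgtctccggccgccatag
Rpl18 (chr7:45718021-45718095, plus strand): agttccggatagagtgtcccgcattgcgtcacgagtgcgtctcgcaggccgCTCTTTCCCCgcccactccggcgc

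Rpl22l1, Rpl12, Rpl39 and Rps12 all held such a tract in the window shown, and so did Rpl28 and Rpl18 among the 3 low members, while the printed window of Rps28 did not. The RefSeq table held 62 of the 83 members, and 39 of these (62.9%) had a tract, against 35.4% of the tested genes in that table. The motif CCGGAAG, whose first letters can overlap the end of a tract, was searched on both strands in the full windows of 300 bases. It stood in 25 of the 62 members (40.3%) and in 19.6% of the tested genes. A match describes the letters of a window and is no evidence of a bound factor.

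The members differed widely in FPKM. Their mean FPKM over all libraries ran from 15.5 to 484 among those tested, a 31.1-fold range that depends in part on the gene lengths used for the FPKM. The highest was Rpl41, the gene of a very short protein between the subunits. It had 508, 532 and 492 FPKM in the libraries labelled Mdr2-knockout, against 442, 430 and 498 FPKM in those labelled wild-type, which overlapped. Rpl10, whose product joins the large subunit late in its assembly, came next at a mean of 416 FPKM, before Rplp1 at 398, Rps18 at 376 and Rps2 at 347. The lowest tested members by FPKM were Rps15a at 15.5, Rpl22l1 at 16.1 and Rpl21 at 18.8 FPKM. In CPM, however, Rps15a had 77.3 in the libraries labelled Mdr2-knockout and 82.0 in those labelled wild-type. Rps12 had 70.9 and 70.4 CPM, yet its mean was 85.3 FPKM. The order of members by FPKM is thus not their order by counts. The 2 untested genes were at the floor. Rpl3l, the striated-muscle relative of Rpl3, had 1, 2 and 0 counts in the libraries labelled Mdr2-knockout, against 0, 0 and 0 in those labelled wild-type. Rpl32l had 1, 4 and 2 counts in the libraries labelled Mdr2-knockout, against 3, 3 and 4 in those labelled wild-type. Ribosomal protein genes have many processed copies in the genome, and how the authors' counting treated reads that match a gene and its copy is not given, so values of single members are uncertain.

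Of the other relatives within the family, Rps27l, which resembles Rps27, was at 16.9 ± 0.580% of the FPKM of Rps27 in the libraries labelled Mdr2-knockout and 16.6 ± 1.29% in those labelled wild-type (SD, n = 3 each). In CPM, which takes no account of length, Rps27l had 69.6 and Rps27 66.3 in the libraries labelled Mdr2-knockout. In those labelled wild-type they had 81.9 and 79.4 CPM. The percentages of all pairs depend on the gene lengths used for the FPKM and serve only to compare the groups. Rpl7l1 was at 7.86 ± 1.03% of Rpl7 in the libraries labelled Mdr2-knockout and 7.28 ± 0.346% in those labelled wild-type, and Rpl6l at 14.4 ± 1.62% and 14.6 ± 0.733% of Rpl6 (SD, n = 3 each, labelled Mdr2-knockout first). Each of these 3 pairs overlapped between the groups, whereas the pair of Rpl22l1 and Rpl22, at 56.1 ± 5.89% in the libraries labelled Mdr2-knockout and 34.6 ± 6.96% in those labelled wild-type (SD, n = 3 each), did not.

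The log2 fold change of the members went with the GC content of their transcripts. GC was that of the longest annotated transcript of each gene, protein-coding where available, which need not be the transcript expressed. For Rps15a it had 5179 bases, against a median of 906 for the members. Across the 81 members Spearman's rho was -0.36, and across the 12393 tested genes with a GC value it was -0.10; genes of the same libraries are not independent. Members under 45% GC had a median log2 fold change under TMM of -0.07 (5 genes) and those over 57% GC of -0.32 (7 genes), while all tested genes had medians of 0.08 and -0.06 in these ranges. By library, GC was also set against each member's deviation from its mean over all 6 libraries. The rho was -0.22, -0.28 and -0.34 in those labelled Mdr2-knockout, against 0.16, 0.36 and 0.32 in those labelled wild-type. These deviations hold the group difference, so the opposite signs largely follow from the trend above and are no separate evidence for it. Rpl22l1 had the lowest GC of the family at 40.6% and Rpl36 had 60.8%, whereas Rpl3, at 51.9%, and Rpl12, at 51.6%, lay near the median of 51.6%. The trend on GC was also removed in each library, an alternative chosen after seeing the data. By edgeR 35 members were then lower under TMM (17.0% of all tested genes). Relative to the family 5 were higher and 0 lower (32.0% and 2.85% of all tested genes).

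Of the ribosomal proteins that the symbol rule missed, 3 of 4 were lower under TMM, beside 16.3% of all tested genes. Fau, which makes a small-subunit protein fused to a ubiquitin-like one, had 78.9, 82.4 and 82.0 CPM in the libraries labelled Mdr2-knockout, against 110, 98.2 and 102 CPM in those labelled wild-type (log2 fold change -0.35, edgeR adjusted p = 0.00311). It did not pass with total counts, at -0.06. Rack1, a scaffold on the small subunit, was at -0.22 (edgeR adjusted p = 0.0374), a call kept in 6 of 17 alternatives and a direction that turned with total counts. Rpl36al, a large-subunit relative of Rpl36a, was at -0.16 (edgeR adjusted p = 0.0683).

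Other genes of translation lay on the same side. Their counts stand beside 16.3% of all tested genes called lower and 20.9% called higher under TMM. Of 8 tested elongation factor genes 4 were lower under TMM, with a median of -0.21, among them Eef2, which moves the ribosome along the messenger, at 1576 ± 80.0 CPM in the libraries labelled Mdr2-knockout and 2230 ± 17.0 CPM in those labelled wild-type (SD, n = 3 each; log2 fold change -0.50, edgeR adjusted p = 0.00103). Eef1d was at -0.31 and Eef1g at -0.25. Of 39 initiation factor genes 17 were lower and 3 higher, with a median of -0.20; Eif4b, a helper of the helicase that opens messengers, was at -0.53 (edgeR adjusted p = 0.00107), Eif3f at -0.32 (adjusted p = 0.00450) and Eif4e3, a cap-binding protein, at 1.80 (adjusted p = 0.000136). Of 78 mitochondrial ribosomal protein genes 26 were lower, with a median of -0.18; the smallest p-values were those of Mrps7 at -0.48, Mrpl34 at -0.50 and Mrpl9 at -0.50. With total counts the medians of these lists were 0.08, 0.09 and 0.11, so their direction turned with the scaling as that of the cytosolic genes did. Of the single genes named from these lists, only Eif4b, at -0.23, and Eif4e3, at 2.10, still passed with total counts.

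The genes that build ribosomes were nearer to the centre of all genes. Under TMM 16.3% of all tested genes were called lower and 20.9% higher, beside the counts below. Of 50 assembly factor genes 3 were lower under TMM, namely Bop1 (log2 fold change -0.32, edgeR adjusted p = 0.00576), Nop10 (-0.20, adjusted p = 0.0479) and Nop16 (-0.23, adjusted p = 0.0492), and the median of the list was -0.07. Of 17 alternatives, 5 kept the call of Nop10 and 4 that of Nop16; DESeq2 gave adjusted p of 0.0979 for Nop10 and 0.102 for Nop16. Of 15 genes of RNA polymerase I and its factors 2 were lower and 2 higher, with a median of -0.06. They include Polr1d at -0.53 (edgeR adjusted p = 0.0151), Taf1b at 0.87 (adjusted p = 0.00491) and Myc, a driver of ribosome synthesis, at 0.90 (adjusted p = 0.0241). Polr1d did not pass with total counts, at -0.24, and Myc kept its call in 13 of 17 alternatives. Of 26 genes of mTORC1 and of TOP control 8 were lower and 1 higher, with a median of -0.10. The higher was Rragd, a GTPase that brings mTORC1 to the lysosome, at 37.5 ± 8.30 CPM in the libraries labelled Mdr2-knockout and 1.88 ± 0.321 CPM in those labelled wild-type (SD, n = 3 each; log2 fold change 4.31, edgeR adjusted p = 4.43e-06). Larp1, which binds the TOP tract, was at -0.40 (edgeR adjusted p = 0.00252) and Rptor, a core part of mTORC1, at -0.36 (adjusted p = 0.00838). Neither passed with total counts, at -0.11 for Larp1 and -0.07 for Rptor. With total counts the medians of these 3 lists were 0.22, 0.23 and 0.19. Of the 50 assembly factor genes 23 were then called higher, beside 47.0% of all tested genes, and Bop1, Nop10 and Nop16 did not pass. The lists were not matched by level to those above.

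**Figure D5:**
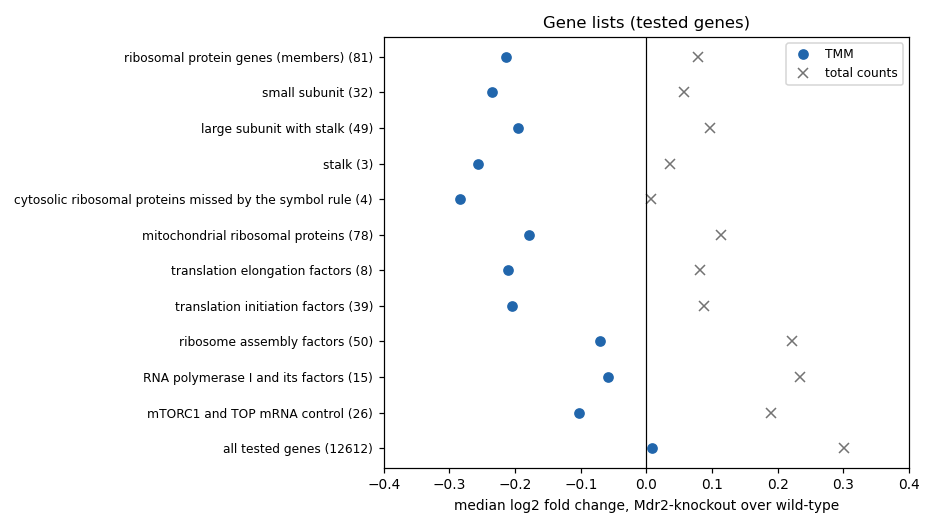
Median log2 fold change (libraries labelled Mdr2-knockout over wild-type) of the tested genes of each list, with their number in brackets, under TMM (circles) and total-count scaling (crosses). The ribosomal, elongation, initiation and mitochondrial ribosomal lists lie between -0.28 and -0.18 under TMM and right of 0 with total counts, and the assembly, RNA polymerase I and mTORC1 lists lie between them and all tested genes.

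The levels of cell type markers differed between the groups on the same scale. Of 23 tested hepatocyte markers 17 were lower and 1 higher under TMM, and their summed level was 121669 to 127079 CPM in the libraries labelled Mdr2-knockout, against 186709 to 197607 CPM in those labelled wild-type. Of 19 bile duct cell (cholangiocyte) markers 17 were higher, with sums of 642 to 717 CPM in the libraries labelled Mdr2-knockout, against 248 to 275 CPM in those labelled wild-type. Of 20 stellate cell and fibroblast markers 14 were higher, with sums of 725 to 880 CPM in the libraries labelled Mdr2-knockout, against 297 to 456 CPM in those labelled wild-type. Of 20 macrophage and monocyte markers 13 were higher, with sums of 736 to 838 CPM in the libraries labelled Mdr2-knockout, against 363 to 625 CPM in those labelled wild-type. Of 13 cycling cell markers 6 were higher, with sums of 51.9 to 64.2 CPM in the libraries labelled Mdr2-knockout, against 46.3 to 50.3 CPM in those labelled wild-type. Of 16 endothelial markers 3 were higher and 3 lower. Few lymphocyte markers could be tested, 5 for T and NK cells, of which 1 was higher and 1 lower, and 3 for B and plasma cells, of which 1 was higher. Over all tested genes 20.9% were called higher and 16.3% lower. With total counts (47.0% and 2.62%), 3 hepatocyte markers were higher and 11 lower, and 9 endothelial markers higher and 1 lower. Those called higher were then 19 for cholangiocytes, 15 for stellate cells and fibroblasts, 16 for macrophages and monocytes and 9 for cycling cells. None of these markers in the table was at 0 in all libraries of a group. The part of these shifts in the levels of the ribosomal protein genes was not tested.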

How the data were processed

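Sequencing covered liver RNA in 6 libraries, 3 per label. The authors deposited raw read counts per gene symbol and FPKM values for the same genes. The build was mm10 and the tools SAMtools, StringTie, Bowtie2, Cufflinks, HISAT2, Trimmomatic, DESeq and HTSeq, per the submitters' processing notes; their roles and versions, the annotation and the strandedness were not given in the sources used here. Without the strandedness, reads of antisense genes cannot be told apart. The deposited FPKM equal the counts of a gene divided by library total and a fixed length (largest deviation 6.69e-06%), so they are no independent measurement and served only to compare levels between genes. Columns M were read as Mdr2-knockout from the titles and columns N as wild-type by elimination; 0 columns were left without a sample.

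The main test was that of edgeR 4.0.16 (R 4.3.3; filterByExpr with minimum count 10 and minimum total 15, TMM factors, robust quasi-likelihood fit with group as its only term, Benjamini-Hochberg adjustment over the 12612 tested genes, threshold 0.05). A positive log2 fold change means higher in the libraries labelled Mdr2-knockout. A second fit used the sum of the 83 members' counts as library size. SE were derived from the fold change and its F statistic. Scripts were tested on simulated data. Alternatives were other scalings, DESeq2 1.42.0, limma-voom (limma 3.58.1), other filters, a replicate block, libraries left out in turn and a GC correction. Named genes were those with the 8 smallest p in each direction, the 5 highest and lowest fold changes and FPKM, all called relative to the family, paralog pairs, the 3 smallest p of each other list, the 4 proteins missed by the rule and Abcb4; the stalk genes were added as a subunit group. Of the genes so named, 2 are not reported here. The members, lists and rules were chosen with earlier results of these data known. Coordinates and GC come from GENCODE M21 (GRCm38), promoters from RefSeq (GRCm38.p6).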

Additional observations from a re-analysis of the deposited data

How the results depend on the processing

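Of the counts under TMM, RLE factors, TMM factors computed without the members, DESeq2, limma-voom, both filters and the GC correction chosen after seeing the data gave 31 to 44 lower members and 0 higher. Over all genes tested in each, these fits called 13.3% to 17.3% lower and 16.7% to 20.7% higher. Upper-quartile factors gave 21 lower and 1 higher, total counts 0 lower and 10 higher with a median log2 fold change of 0.0783, and totals without the 50 most abundant genes 4 lower and 3 higher with a median of -0.0353. Leaving out 1 library gave 19 to 39 lower and 0 to 1 higher members, with fewer samples in each fit (11.2% to 15.5% and 16.2% to 20.1% of all tested genes). The log2 ratio of the members' summed share was 0.0743 over all counts, -0.0390 without the 50 most abundant genes and -0.22 with TMM sizes. Relative to the family, DESeq2 gave 3 higher and 2 lower (28.2% and 2.77% of its tested genes). The GC correction gave 5 higher and 0 lower (32.0% and 2.85% of all tested genes). Leaving out 1 library gave 3 to 4 higher and 0 to 1 lower (27.2% to 35.4% and 1.78% to 3.64% of all tested genes). The replicate numbers were not taken to pair the libraries: the correlation of deviations was 0.0726, 0.0338 and -0.0795 for numbers 1, 2 and 3 over all tested genes, and 0.517, 0.112 and 0.0468 over the members. With a replicate block 1 member was higher and 32 lower (20.4% and 15.8% of all tested genes), and relative to the family 4 were higher and 0 lower (35.3% and 3.27%). With total counts these named genes turned positive: Rpl7l1 0.15, Rps27l 0.0576, Rpl6l 0.12, Rpl7 0.0456, Rpl22 0.0085, Rps27 0.0341, Rpl6 0.14, Rpl32 0.11, Rpl41 0.16, Rpl10 0.14, Rps2 0.0132, Rpl21 0.16, Rps15a 0.21, Rack1 0.0736, Rpl36al 0.13, Eef1g 0.0450, Nop10 0.0944, Nop16 0.0630 and Cd79a 0.21. Without the 50 most abundant genes in the total, Rpl7l1 was at 0.0326, Rpl6l 0.0110, Rpl6 0.0285, Rpl41 0.0481, Rpl10 0.0310, Rpl21 0.0474, Rps15a 0.0943, Rpl36al 0.0166 and Cd79a 0.0945. Rps12, near 0 under TMM, was at -0.00947 with DESeq2 and at -0.00379 without a filter. Leaving out 1 library moved Rps12 between -0.0573 and 0.0690, Rpl39 between -0.0448 and 0.12 and Cd79a between -1.12 and 0.25, which crossed 0 in each. The scalings differ by a shift common to all genes, which is what turns these signs; for the other changes the cause was not tested. Members had at least 80 counts in each library where tested, and their median SE was 0.08.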

Other observations

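Rps27a, which makes a small-subunit protein fused to ubiquitin, was singled out after its values were seen, as the member with the largest SE (0.25, against a median of 0.08 for the family). Its counts were 1402, 2050 and 1789 in the libraries labelled Mdr2-knockout, against 1165, 1691 and 2055 in those labelled wild-type, and the groups overlapped on each scale used. The table also held 8 rows marked as ribosomal protein pseudogenes, with 65 to 90 counts per library in all, most of them in Rpl34-ps1 (60, 73 and 61 in the libraries labelled Mdr2-knockout, against 68, 53 and 66 in those labelled wild-type). The retrogene rows Rpl37rt, at 254, 248 and 264 counts in the libraries labelled Mdr2-knockout and 240, 217 and 249 in those labelled wild-type, and Rps27rt, at 162, 162 and 137 counts in the libraries labelled Mdr2-knockout and 130, 170 and 148 in those labelled wild-type, could share reads with Rpl37 and Rps27. Of 10 listed host genes of small nucleolar RNAs, 0 were in the table.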
